A study of Caenorhabditis elegans with 4 samples.

Results

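Broad COH-1 domains were the widest peaks in a deposited list of Caenorhabditis elegans chromatin called as bound by COH-1, a kleisin of the cohesin complex. They were taken as the peaks of 5000 bp or more on chromosomes I, II, III, IV, V and X in the 1 peak list that the authors deposited for all samples together (the series list below). This rule found 214 of the 15765 peaks in that list, and 15547 narrower peaks remained on the 6 nuclear chromosomes. The domains were chosen by their measured width, so their widths, and the scores that came from the same peak calling, are given as descriptions and were not tested.

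Cohesin is a ring-shaped complex that holds sister chromatids together and also folds chromosomes by extruding loops of DNA. The kleisin subunit closes the ring, and COH-1 is a kleisin of cohesin in somatic cells of the worm. Worms have no CTCF, the protein that stops cohesin at loop anchors in vertebrates, so the places where cohesin collects along worm chromosomes are of interest in their own right.

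The 2 ChIP samples, with a separate peak list each, and 2 input DNA samples all came from fem-2(b245)III hermaphrodites at the stage labelled germline-containing young adult, grown at 20 °C per the series record. The fem-2 gene acts in male development and sperm formation, every sample carried the allele, and no other genotype served as a control. The growth protocol describes gravid animals harvested from batch cultures, so each sample pooled many whole worms and the cells in which COH-1 was bound are unknown. The worms were crosslinked for 20 minutes with EGS, which joins proteins, with formaldehyde added for another 10 minutes, and a rabbit polyclonal antibody to COH-1 was used.

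The ChIP replicate 1 list held 2587 peaks and the ChIP replicate 2 list 3714, and together with the series list these 3 lists are the data used here. The replicate 2 list was deposited under a name that carries a further gene name which no label explains, so its values are given apart from those of replicate 1 throughout. Nothing in the labels says whether the replicates were separate cultures. The lists hold no read counts, so depth is unknown, and the inputs have no values here to set beside the domains. The sources used here do not say whether the series list was called on the pooled reads of both replicates, so its overlap with the replicate lists is no independent support for a domain.

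The domains were few but held a large share of the bound sequence. They made up 1.36% of the nuclear peaks of the series list and 17.9% of the bases inside them, 1.81 of 10.1 Mb. Together they spanned 1.81% of the nuclear genome. Widths ran from 5009 to 29968 bp with a median of 6650 bp, against 146 to 4995 bp and a median of 317 bp in the narrower peaks. Of the 214 domains, 146 were at least 6000 bp wide, 79 at least 7500 bp, 49 at least 10000 bp and 8 at least 20000 bp.

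The threshold fell in a continuous range of widths. The peaks just inside it were 5009 bp on I (3722260 to 3727268), 5010 bp on II (6891813 to 6896822) and 5010 bp on V (6652897 to 6657906). Those just outside it were 4995 bp on V (1473983 to 1478977), 4994 bp on V (11922644 to 11927637) and 4991 bp on II (6348301 to 6353291). Series scores were 43.1, 46.9 and 36.7 for the 3 inside and 26.9, 44.2 and 35.8 for the 3 outside, so scores on its 2 sides overlapped.

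Nearly all domains had another series peak close to an edge. The nearest other series peak lay between 43 and 1054 bp away, with a median of 92.5 bp, and 212 of the 214 domains (99.1%) had one within 500 bp. On 169 domains this held on both sides. Among narrower peaks the median distance was 235 bp. Another series peak lay within 1 kb of 99.5% of the domains and 82.8% of the narrower peaks. Within 10 kb on either side of a domain, narrower series peaks filled a median of 36.2% of the sequence. How many domains there are depends on where a peak is taken to end. When series peaks separated by at most 500 bp were joined, 543 regions reached 5000 bp, of which 171 held a domain and 372 were built from narrower peaks alone. The joined regions covered 6.35 Mb and reached 49163 bp.

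**Figure D1:**
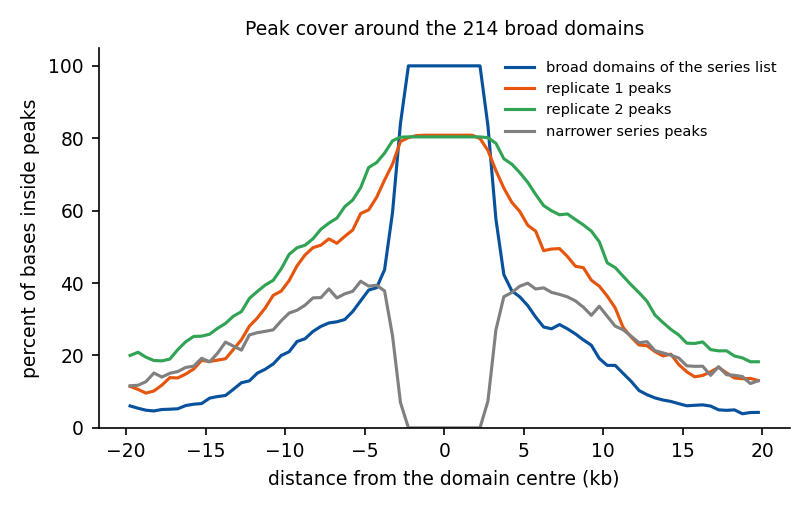
Percentage of bases inside peaks, in bins of 500 bp, against distance in kb from the centres of the 214 broad domains; lines stand for the broad domains themselves, replicate 1 peaks, replicate 2 peaks and the narrower series peaks. Both replicate lists form a plateau near 80% over the centre (80.8% for replicate 1 and 80.4% for replicate 2), and replicate 2 stays above replicate 1 on both flanks.

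The 8 domains of 20000 bp or more lay on I, II, V and X, and none of them on III or IV. The widest of all spanned 29968 bp at 7469784 to 7499751 on I, with a series score of 60.7. Replicate 1 had no peak over it, and replicate 2 covered all of it with a peak of 38730 bp. The second spanned 26913 bp at 6214524 to 6241436 on V (score 89.8) and was likewise empty in replicate 1 and inside a replicate 2 peak of 48409 bp.

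Of the 10 widest domains, 4 lay in the middle of X, and both replicates covered them over more than 99%. The widest of these were 26421 bp at 11460322 to 11486742, 24186 bp at 6238209 to 6262394 and 23305 bp at 6731615 to 6754919. The last spanned 19661 bp at 8009907 to 8029567. X is the chromosome on which hermaphrodites carry out dosage compensation, through a condensin-based complex related in structure to cohesin.

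The other members of this group were on the autosomes. On II, 24642 bp at 10539367 to 10564008 and 23960 bp at 5320920 to 5344879 were covered by replicate 2 and had no replicate 1 peak. On V, 24142 bp at 10707380 to 10731521 was covered over 100% by both lists, and on I, 19483 bp at 12537685 to 12557167 was covered over 95.5% by replicate 1 and 100% by replicate 2. Of the 10 widest domains, 4 therefore had no partner in replicate 1 and all had one in replicate 2.

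The widest domains of the remaining chromosomes behaved differently. On IV the widest was 17003 bp at 8522986 to 8539988 (score 35.7), with a replicate 1 peak of 20575 bp around it and no replicate 2 peak. On III it was 16663 bp at 6352231 to 6368893 (score 24.3), with no peak in either replicate list, although narrower series peaks filled 46.9% of its 10 kb flanks.

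In the series list the score, whose meaning no source gives, was high in the domains and rose with width among them. Scores ran from 10.9 to 143 with a median of 38.8 in the domains, and had a median of 5.49 in the narrower peaks. Of the 214 domains, 210 (98.1%) were in the top 10% of nuclear series peaks by score, and 9 of the 10 highest scores belonged to domains. Among the 100 highest scores, however, 56 were domains, and the narrowest peak among those 100 measured 324 bp. Across the 214 domains Spearman's rho between score and width was 0.34 and Pearson's r 0.42. The rho was 0.69 across the 15547 narrower peaks and 0.70 across all nuclear series peaks. The width minimum restricts the range of widths among the domains, so their lower rho cannot be read as a trait of broad peaks. Score and width come from 1 call of 1 list and neighbouring peaks share their surroundings, so these are descriptions. Median scores were 37.0 at widths from 5 to under 6 kb, 36.1 from 6 to under 7.5 kb, 41.6 from 7.5 to under 10 kb and 55.2 at 10 kb or more.

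**Figure D2:**
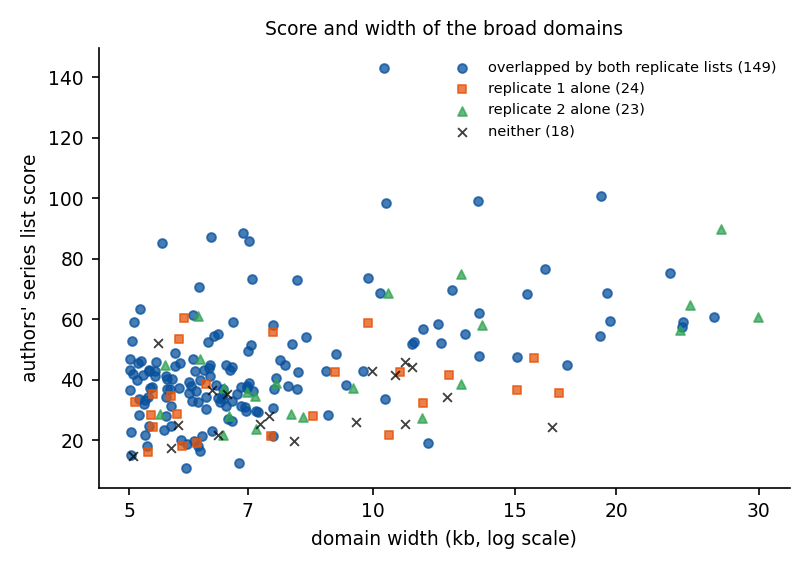
Series list score against domain width in kb (log scale) for the 214 broad domains, 1 point each; the marker gives the replicate lists that overlap the domain. The widest domains score from 56.5 upward among the 8 of 20 kb or more, and the 18 domains found in neither replicate list reach at most 52.1.

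The highest score, 143, belonged to a domain of 10324 bp at 12609976 to 12620299 on III. Next were 19141 bp on I at 7074378 to 7093518 (101), 13506 bp on X at 15602009 to 15615514 (99.1) and 10369 bp on IV at 8789507 to 8799875 (98.4). These 4 were fully covered by both replicate lists. The fifth highest score, 89.8, was that of the second widest domain, 26913 bp on V at 6214524 to 6241436, which replicate 2 covered completely and replicate 1 did not overlap. The lowest score, 10.9, was that of a domain of 5881 bp on IV at 5657978 to 5663858, which both replicates also covered over 100%, replicate 1 with a peak scoring 1157 and replicate 2 with a peak scoring 3016 in their own lists. The next lowest were 12.4 on X at 3024624 to 3031459, also covered by both lists, and 14.8 on II at 6844121 to 6849174, covered by neither.

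Scores of the replicate peaks over the domains did not rise with domain width. Over the 173 domains that replicate 1 overlapped, the highest score of the overlapping replicate 1 peaks had a median of 1157, against 150 for that whole list, and a rho of -0.02 with domain width. Over the 172 that replicate 2 overlapped, the median was 3100, a value shared by many of its peaks, against 323 for the whole list, and the rho was -0.24. Over 93 of these 172 the score was 3100 or more, so many ranks were tied and the rho says little about width. Across each whole list score rose with peak width (rho 0.87 and 0.89), so the whole-list medians are not width-matched. Among replicate peaks of 5000 bp or more, those with and without a domain had median scores of 1192 and 812 in replicate 1. In replicate 2 both medians stood at the shared value of 3100, so they do not separate these groups. Among the 8 domains of 20000 bp or more the replicate 2 scores ran from 74.2 to 3069 with a median of 453. The X domain at 11460322 to 11486742, 26421 bp wide, lay under a replicate 2 peak scoring 74.2 and a replicate 1 peak scoring 227. Some of the widest series domains were thus covered by low-scoring peaks in the replicate lists.

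The domains were spread over all 6 chromosomes, with X and III the richest and IV the poorest in the series list. X carried 47 domains (2.66 per Mb), III 36 (2.61), I 38 (2.52), II 35 (2.29), V 38 (1.82) and IV 20 (1.14). The neighbours X, III and I in this order differ by less than 0.2 domains per Mb. Domains covered 2.41% of X, 2.11% of I, 1.99% of III, 1.80% of II, 1.65% of V and 1.00% of IV. The density on X was 1.32 times that of the pooled autosomes. The replicate lists, which the rule did not use, gave another order for peaks of 5000 bp or more. There III was highest, with 6.38 per Mb in replicate 1 and 6.60 in replicate 2, X came next with 4.31 and 6.29, and V was lowest with 2.92 and 4.44, against 3.77 and 4.52 on IV. With 6 chromosomes the rank of X cannot give a p below the 0.05 threshold, so no test was made. The ratio was 1.04 at a width minimum of 4000 bp and 1.48 at 7500 bp. Narrower peaks were also densest on III (189 per Mb) and X (183 per Mb). X held 22.0% of the domains and 20.8% of the narrower peaks, so its lead was near that of the whole list. IV held 9.35% of the domains and 15.6% of the narrower peaks.

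Chromosome arms and centres differ in worms: the centres hold more of the widely expressed genes and recombine less, and the arms are richer in repeats. Each chromosome was cut into 3 equal parts, and each domain was placed by its midpoint. The middle parts held 104 of the 214 domains (48.6%), the left parts 58 and the right parts 52, which is 3.11 domains per Mb in the middle and 1.65 per Mb in the outer parts. Among the narrower peaks 44.7% lay in the middle parts.

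The domains were unevenly placed from chromosome to chromosome. On II the left part held 1 domain, the middle 26 and the right 8. On I the counts were 10, 22 and 6, and on V they were 10, 21 and 7. These 3 autosomes had 2.75 (I), 5.78 (II) and 2.47 (V) times as many domains per Mb in the middle as in the outer parts. On III, with 14, 15 and 7 domains, the left and middle parts were near each other. On IV the left part led, with 11 domains against 6 in the middle and 3 on the right. On X the right part led, with 21 against 14 in the middle and 12 on the left.

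Across chromosomes, a denser middle did not pass the test. The log2 ratio of middle to outer density averaged 0.89 ± 1.08 (SD over 6 chromosomes) and was above 0 on 4 of 6 chromosomes (two-sided exact permutation test, flipping signs over chromosomes, p = 0.125, smallest possible 0.0312). Peaks of the same width in the replicate lists gave 0.91 ± 0.75 in replicate 1, above 0 on 5 of 6 (exact p = 0.0625), and 0.87 ± 0.50 in replicate 2, above 0 on 6 of 6 (exact p = 0.0312). The call also passed when the middle 50% was set against the outer 25% on each side (1.17) and when peaks within 500 bp were joined (0.92), both at exact p = 0.0312. The call therefore depends on the list and on how parts and peaks are bounded. For narrower series peaks the same log2 ratio, not tested, was above 0 on every chromosome, from 0.085 on X to 1.31 on V. A denser middle was thus not particular to broad peaks.

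Set against the narrower peaks, the domains showed no difference in placement that held over chromosomes. The share in the middle part was higher for domains than for narrower peaks on II (74.3% against 49.8%), I (57.9% against 46.3%) and III (41.7% against 39.6%). It was lower on IV (30.0% against 46.0%) and X (29.8% against 34.7%), and near equal on V (55.3% against 55.4%). The mean difference was 2.86 ± 13.9 percentage points (SD over 6 chromosomes; two-sided exact sign-flip test, p = 0.688). With peaks joined within 500 bp it was 7.44 points, above 0 on 6 of 6 chromosomes (exact p = 0.0312). Joining forms broad regions where peaks lie close together, and 372 of the 543 joined regions held no domain. That value therefore describes joined regions and not the domains. Repeats and mappable sequence differ between arms and centres, and their part in these values was not tested.

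**Figure D3:**
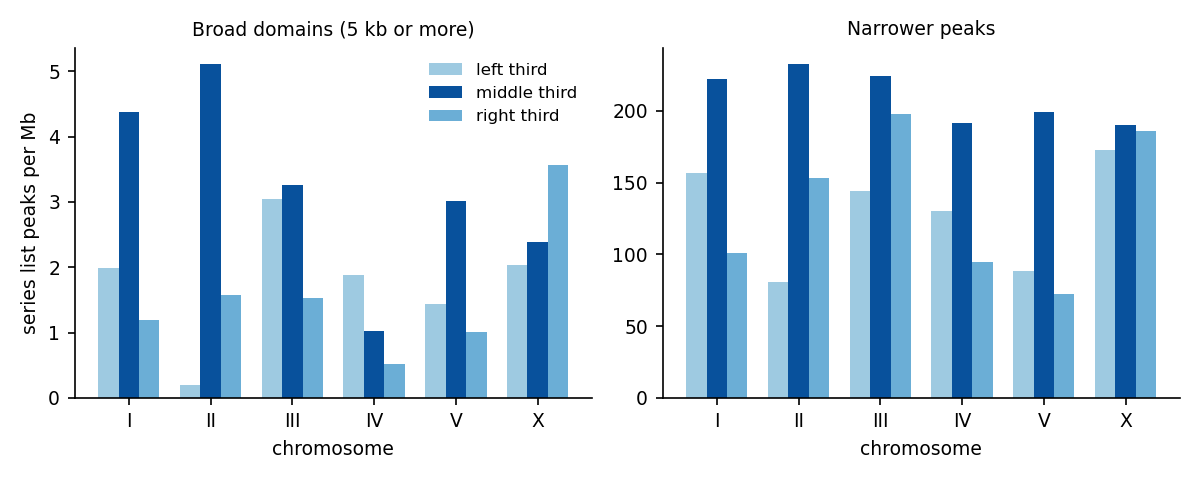
Series list peaks per Mb in the left, middle and right parts of each chromosome, for broad domains (left panel) and narrower peaks (right panel; the 2 vertical scales differ). II shows the steepest contrast among the domains, with 0.196 per Mb on the left and 5.10 in the middle, whereas on IV the left part and on X the right part is highest.

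Gaps between neighbouring domains covered a wide range. The 208 gaps between successive domains of a chromosome had a median of 199.9 kb, an interquartile range of 16.2 to 480 kb and extremes of 48 bp and 3702 kb. The mean gap was 406 kb. Of these gaps 27 were at most 1 kb, 44 at most 5 kb and 53 at most 20 kb, which is 25.5% of all gaps. A further 11 fell between 20 and 50 kb, and 144 were longer. Medians by chromosome were 107 kb on II, 129 kb on I, 177 kb on III, 252 kb on X, 271 kb on V and 360 kb on IV. Short gaps were least frequent on X, where 15.2% of gaps were at most 20 kb, against 35.3% on II.

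**Figure D4:**
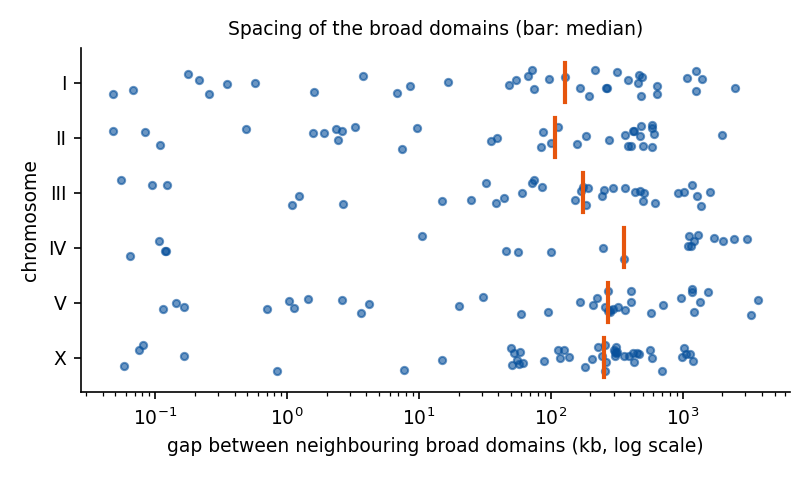
Gap in kb (log scale) between each pair of neighbouring broad domains, 1 point per gap, by chromosome, with the median as a bar. Each chromosome has 3 to 7 gaps of at most 1 kb, and on every chromosome most gaps are longer than 50 kb.

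The short gaps divided sequence that the replicate lists often called as 1 peak. Of the 53 gaps of at most 20 kb, 26 lay wholly under a single replicate 1 peak that ran from one domain to the next, 31 under a single replicate 2 peak, and 36 under at least 1 such peak. A further series peak lay inside 30 of them. Linking domains across gaps of at most 20 kb left 115 domains alone, 40 pairs and 6 longer chains, so 99 domains (46.3%) had a close neighbour.

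The chain with the most domains held 4, on II, from 9593822 to 9627308, and they filled 91.7% of its 33.5 kb. Replicate 1 covered 99.0% of their bases and replicate 2 none. The other 5 chains held 3 domains each, and the 2 longest of these lay on III and I. That on III, from 3948699 to 3986529, was covered over 99.0% by replicate 1 and 100% by replicate 2. That on I, from 7547969 to 7581228, was covered over 28.4% by both lists, since both covered its rightmost domain and neither covered the other two.

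The widest gaps between successive domains were in the outer parts of V and on IV. They ran for 3702 kb on V (2134296 to 5836248), 3287 kb on V (17126593 to 20413184) and 3089 kb on IV (10940333 to 14029281). Chromosome ends are not counted among the gaps, and the left end of II, before its first domain at 4850820, was longer than any of them. Narrower series peaks lay within all of these. The next series peak began 75 and 1555 bp into the gaps on V and 240 bp into that on IV. On II one ended 1376 bp before the first domain.

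Each replicate list covered a domain almost completely or not at all. Replicate 1 covered 133 domains completely and 40 in part, never less than 87.6% of a domain, and left 41 with no base covered. Replicate 2 covered 170 completely and 2 in part (98.1% and 99.6%), and left 42 with no base covered. No domain had a coverage between 0 and 87.6% in either list. Over all 15761 nuclear series peaks, complete coverage was reached by 35.2% in replicate 1 and 62.1% in replicate 2, and 9044 and 5401 had no base covered. Of those that a list overlapped, 5883 of 6717 in replicate 1 and 9925 of 10360 in replicate 2 were covered over at least 90%. Near-complete coverage or none was thus usual in the whole series list.

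**Figure D5:**
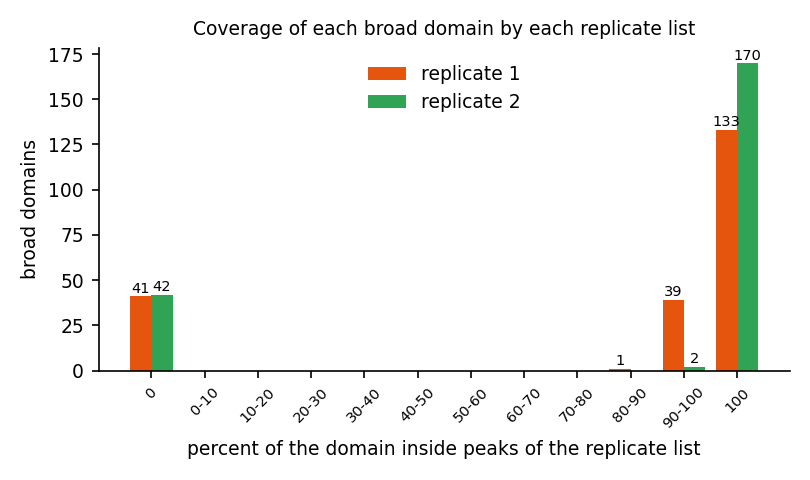
Number of broad domains by the percentage of their bases inside peaks of the replicate 1 and replicate 2 lists; the end bars hold domains at exactly 0 and exactly 100%. The counts stand at 41 and 42 domains at 0, 133 and 170 at 100%, and the range from 0 to 80% is empty.

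In bases, replicate 1 covered 1.39 Mb of the domains (76.4%) and replicate 2 covered 1.46 Mb (80.2%), with 1.18 Mb (65.3%) covered by both. The 2 lists cover 8.28% and 11.7% of the nuclear genome. For narrower series peaks the covered shares were 62.3% and 76.4%. The domains without any peak accounted for 98.0% of the uncovered bases in replicate 1 and nearly all of them in replicate 2. Both lists thus left whole domains out, and seldom parts of them.

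Where a replicate list overlapped a domain, the domain was nearly always a single piece. Replicate 1 called 163 domains as 1 piece and 10 as 2 pieces, and replicate 2 called 172 as 1 piece. Single pieces were not particular to the domains. Replicate 1 called 6455 narrower series peaks as 1 piece and 89 as 2, and replicate 2 called 10140 as 1 and 48 as 2. The widest domains in 2 pieces were 13537 bp on IV at 4463054 to 4476590, 11543 bp on IV at 4395022 to 4406564 and 10478 bp on V at 13376898 to 13387375. After pieces within 500 bp were joined, 1 domain remained in 2 pieces. Replicate 2 never split a domain, so no most divided domain can be named for it.

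The replicate peaks reached beyond the domains. Every domain that a replicate list overlapped was overlapped by a peak of 5000 bp or more in that list. The widest replicate 1 peak over a domain had a median width of 13.4 kb and the widest replicate 2 peak one of 17.6 kb, or 1.70 and 2.33 times the domain's own width. Replicate 1 peaks ran past the domain by a median of 1285 bp on the left and 1561 bp on the right, and replicate 2 peaks by 3040 and 2944 bp. Complete coverage is therefore partly a matter of the wider peaks of the replicate lists, and peak widths were not compared as amounts of binding.

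The replicate lists held more broad peaks than the series list. Peaks of 5000 bp or more numbered 407 in replicate 1 (15.7% of that list) and 542 in replicate 2 (14.6%). Of these, 151 in replicate 1 (37.1%) and 141 in replicate 2 (26.0%) overlapped a domain. The other 256 and 401 all overlapped series peaks that were narrower, a median of 5 per replicate 1 peak and 7 per replicate 2 peak. Those series peaks covered a median of 86.2% of the replicate 1 peaks without a domain and 76.3% of the replicate 2 peaks.

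Both replicate lists overlapped 149 of the 214 domains (69.6%, exact 95% binomial interval 63.0 to 75.7), against 36.2% of all nuclear series peaks. The interval covers counting error and treats domains as independent, which neighbours are not. Replicate 1 overlapped 173 (80.8%, background 42.6%) and replicate 2 overlapped 172 (80.4%, background 65.7%). By replicate 1 alone 24 were overlapped (background 6.45%), by replicate 2 alone 23 (background 29.6%), and 18 by neither (background 27.8%). The background is made up mostly of narrow peaks, with 11004 under 0.5 kb of which 21.3% were in both lists. Series peaks of 1 to under 2 kb were in both lists in 82.1% of cases and those of 2 to under 5 kb in 79.2%, both above the share of the domains. No test of these shares was made.

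Among high-scoring peaks, domains and narrower peaks had similar shares in the replicate lists. In the top 10% of scores, 146 of 210 domains (69.5%) and 1024 of 1367 narrower peaks (74.9%) were overlapped by both lists, and 8.10% of the domains and 7.83% of the narrower peaks by neither. These shares carry no test, and within that class the domains' median score was 39.2, against 21.6 in the narrower peaks. By width, the share in both lists was 76.5% from 5 to under 6 kb, 76.1% from 6 to under 7.5 kb, 63.3% from 7.5 to under 10 kb and 55.1% at 10 kb or more, where 27 of 49 were in both lists.

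The domains that a list missed were unevenly spread over the chromosomes, which was not tested. Overlap by chromosome was not counted for all series peaks, so these counts cannot be read as particular to the domains. Replicate 1 overlapped all 20 domains of IV and 28 of 35 on II, 29 of 36 on III, 28 of 38 on V, 29 of 38 on I and 39 of 47 on X. Replicate 2 overlapped 13 of 20 on IV, 23 of 35 on II, 26 of 36 on III, 35 of 38 on V, 34 of 38 on I and 41 of 47 on X. Of the 24 domains found in replicate 1 alone, 9 were on II and 7 on IV. Of the 23 found in replicate 2 alone, 8 were on V, 5 on I and 5 on X.

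The widest domains found in replicate 1 alone were 17003 bp on IV, described above, 15820 bp on IV at 10813594 to 10829413 (score 47.3) and 15082 bp on X at 13347203 to 13362284 (score 36.8). The widest found in replicate 2 alone were those of 29968 bp on I, 26913 bp on V and 24642 bp on II. The median widths of these groups were 6854 bp for replicate 1 alone, 7917 bp for replicate 2 alone and 6465 bp for domains in both lists.

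By definition, each missed domain lay in a stretch without a peak of that list. Longer stretches have more room for a domain, and stretches around missed narrower peaks were not measured. The lengths below are therefore descriptions and not a trait of missed domains. The 41 domains that replicate 1 missed fell in 29 stretches without a replicate 1 peak, 11 of which held more than 1 domain, with lengths from 18.8 to 307 kb and a median of 96.6 kb. The 42 that replicate 2 missed fell in 30 such stretches, 9 with more than 1 domain, from 15.6 to 223 kb and with a median of 57.4 kb. The distance from a missed domain to the nearest peak of the list had a median of 13.7 kb in replicate 1 and 8.94 kb in replicate 2, and was at most 5 kb for 11 domains in replicate 1 and 14 in replicate 2. Series peaks filled a median of 25.7% of the replicate 1 stretches and 49.9% of the replicate 2 stretches. On II, 2 chains of 3 and 4 domains fell in stretches of 135 and 56.5 kb that replicate 2 left empty, where replicate 1 covered 96.1% and 99.0% of the domains' bases.

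The 18 domains in neither list had more of their flanks filled by narrower series peaks than the other domains, by the medians. Sequence inside a neighbouring domain was not counted as filled, so the total fill by series peaks was not measured. The nearest domain lay a median of 9.72 kb from these 18. For domains in both lists it lay 52.5 kb away, for replicate 1 alone 35.2 kb and for replicate 2 alone 1.60 kb. Narrower series peaks filled a median of 59.4% of the 10 kb flanks of the 18. The medians were 33.3% for domains in both lists, 45.6% for replicate 1 alone and 32.7% for replicate 2 alone. The median series score of the 18 was 27.0, against 41.3 for domains in both lists, and their median width 7718 bp. On III there were 6, with 4 on I, 3 each on II and X, 2 on V and none on IV.

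Of these 18 domains, 9 were at least 7500 bp wide. After the III domain of 16663 bp came 12346 bp on I at 10751504 to 10763849 (score 34.3), inside a stretch of 21.3 kb without replicate 1 peaks of which series peaks filled 91.8%. The stretch around it without replicate 2 peaks was 189 kb long, and series peaks filled 15.7% of it. Next was 11163 bp on I at 15060211 to 15071373 (score 44.2), which lies near the right end of that chromosome, where the ribosomal RNA gene repeat is located. No replicate peak lay between it and the last peak end of the chromosome, 1070 bp away.

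The others were 10962 bp on III at 7714076 to 7725037 (score 45.7), 10961 bp on X at 12502716 to 12513676 (25.5) and 10661 bp on II at 6823743 to 6834403 (41.6). A pair on X, 9981 bp at 13139170 to 13149150 (43.0) and 7995 bp at 13156926 to 13164920 (19.6), lay within 10 kb of each other. The last was 9521 bp on I at 7547969 to 7557489 (26.1), the first domain of the chain named above, with a replicate 1 peak 2108 bp away and a replicate 2 peak 2002 bp away. Whether read depth, repeated sequence or the settings of the callers set these omissions was not tested.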

How the data were processed

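The 2 ChIP samples are described by 3 peak lists, 1 for each replicate and 1 for the series. Alignment used BWA and ce10, per the submitters' processing notes, and peak positions are on WormBase WS220, per the file headers. The caller is named MACS v2 in the series list and MACS in the other lists. The sources used here do not state versions, thresholds or use of the inputs. Each deposited peak has a start, an end and a score from the authors' caller, whose meaning is not stated, and scores were used only within their own list.

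Positions were analysed with SciPy 1.17.1, pandas 2.3.3 and NumPy 2.4.6 under Python 3.11.15, and overlap meant at least 1 bp. The last peak end over all lists stood for a chromosome's length, and these lengths sum to 100.2 Mb. Chromosome tests were exact sign-flip permutation tests over 6 chromosomes; the measures were tested on simulated domains. Width minimum, joining of peaks, chromosome parts, score and overlap were varied. Regions named were the widest, the highest and lowest in score, those nearest the minimum, the widest missed by either or both lists, and the longest chains and gaps. Members, lists and tests were chosen with earlier results of these data known. The only annotation at hand is of another build, so no genes or sequences were assigned to domains.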

Additional observations from a re-analysis of the deposited data

How the results depend on the processing

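Of 51 alternatives to 9 results, 29 kept the direction and the side of the threshold or stayed within the limit set for a move (1.5 times for a count), 16 moved a value, 5 brought a test past the threshold and 1 reversed a direction. With width minimums of 4000, 7500 and 10000 bp there were 318, 79 and 49 domains, and with peaks within 500 bp joined there were 543 regions. Of those 543, 372 were built from narrower peaks alone. The mean log2 ratio of middle to outer density (0.89, exact p = 0.125) passed the exact test at 10000 bp (0.61), with the middle 50% (1.17) and with joined peaks (0.92), each at exact p = 0.0312, and with 1 replicate list in place of the series list it ran from 0.87, past the threshold in replicate 2, to 0.91. The difference in middle share from narrower peaks, 2.86 points, was -0.99 at 10000 bp (exact p = 0.656) and 7.44 with joined peaks (exact p = 0.0312); with 1 replicate list it ran from 4.45 to 6.22. The X ratio of 1.32 was 1.04, 1.48 and 1.20 at 4000, 7500 and 10000 bp and 1.43 in bases. The median gap of 199.9 kb was 111 kb, 734 kb and 1368 kb at those minimums and 83.4 kb with joined peaks. The share in both lists, 69.6%, was 58.2% at 7500 bp and 55.1% at 10000 bp, and 80.4% to 80.8% when 1 list was asked for. Median coverage, 100% in each list, was 99.9% at 10000 bp. Higher minimums keep fewer domains and so widen gaps by construction; for the other changes the cause was not tested. No paired analysis was possible because the inputs that share the ChIP replicate numbers have no peak lists here. Depth is unknown, so weak or missed domains cannot be judged against it.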
